A study of Mus musculus with 9 samples.

Results

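The genes described here encode 6 sarcomeric myosin heavy chains, Myh1, Myh2, Myh3, Myh4, Myh7 and Myh8. They were chosen by symbol, and each matched 1 row among the 27179 genes of the deposited expression matrix. Expression was measured by polyA RNA sequencing of sorted cells from the fibrous tissue that forms around a tibial implant in mice, taken 2 weeks after surgery. The sort kept lineage-negative cells carrying tdTomato, a red fluorescent protein switched on by a tamoxifen-inducible Cre recombinase under Lepr (leptin receptor) control. The 5 conditional knockout (cKO) libraries came from Lepr-CreERT;Tdtomato;Grem1fl/fl mice, which lose Grem1, the gene of the secreted BMP antagonist Gremlin 1, wherever the Cre is active. The 4 control libraries came from Lepr-CreERT;Tdtomato littermates with the Cre alone. Tamoxifen, the implant and the reporter were common to both genotypes. Whether each library is a separate animal is not stated in the labels, and p-values refer to the variation among libraries, which may be partly technical.

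Myosin heavy chains are the motor proteins of the thick filament, and the isoform a muscle fibre makes largely sets how fast it contracts. Adult limb fibres of mice use 4 of these genes: Myh4 (type 2B, the fastest), Myh1 (type 2X), Myh2 (type 2A) and Myh7 (type 1, slow, also the beta chain of the heart). Myh3 (embryonic) and Myh8 (perinatal) are made in developing muscle and again, for a time, in regenerating fibres. Stromal cells are not known for making any of them.

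The values are normalized counts, read counts that the authors scaled by a size factor for each library. The cKO libraries held 43.5 to 87.2 M (megareads) and the control libraries 44.8 to 53.4 M, and cKO 5 was the only cKO library under 60 M. Grem1 had 46.4 to 133 normalized counts in cKO libraries and 356 to 736 in control libraries, a log2 fold change of -2.72 (limma, adjusted p = 0.00781). Lepr was present in every library, at 1347 to 15785 in cKO and 935 to 40594 in control libraries (log2 fold change 0.07, adjusted p = 0.976). The genes tested had at least 10 normalized counts in at least 4 libraries. Each was tested by limma on log2(normalized count + 1), and called at an adjusted p under 0.05. Of the 15832 genes tested, 7.48% were called, with 4.61% called as higher and 2.87% as lower in cKO libraries. The median log2 fold change over the genes tested was 0.

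Myh4, Myh1, Myh2, Myh8 and Myh3 lie together on chromosome 11 and Myh7 lies on chromosome 14. The stretches of 250 bases before the annotated start sites of Myh4, Myh1, Myh2 and Myh8 are shown because the first 3 of these genes were the ones called and because they hold a common run of letters. The sequences are from RefSeq, build GRCm38.p6, and are written 5′ to 3′. Capitals mark the longest run of bases common to the adult fast genes, or, for Myh8, the part of that run found there.
Myh4 (chr11:67237562-67237811, + strand): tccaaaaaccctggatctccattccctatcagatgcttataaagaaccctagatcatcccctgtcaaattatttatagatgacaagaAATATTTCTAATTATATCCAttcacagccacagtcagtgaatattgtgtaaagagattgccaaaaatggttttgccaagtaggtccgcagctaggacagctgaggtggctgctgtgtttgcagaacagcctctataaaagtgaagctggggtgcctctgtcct
Myh1 (chr11:67199852-67200101, + strand): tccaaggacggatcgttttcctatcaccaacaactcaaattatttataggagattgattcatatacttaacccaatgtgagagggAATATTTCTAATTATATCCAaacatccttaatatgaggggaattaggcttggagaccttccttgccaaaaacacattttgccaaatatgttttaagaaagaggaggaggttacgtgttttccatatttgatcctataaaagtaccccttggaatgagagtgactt
Myh2 (chr11:67170777-67171026, + strand): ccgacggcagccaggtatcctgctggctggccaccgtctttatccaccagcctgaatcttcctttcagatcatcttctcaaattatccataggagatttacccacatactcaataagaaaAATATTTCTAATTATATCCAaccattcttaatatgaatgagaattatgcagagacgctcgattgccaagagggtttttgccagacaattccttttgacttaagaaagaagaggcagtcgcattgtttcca
Myh8 (chr11:67276874-67277123, + strand): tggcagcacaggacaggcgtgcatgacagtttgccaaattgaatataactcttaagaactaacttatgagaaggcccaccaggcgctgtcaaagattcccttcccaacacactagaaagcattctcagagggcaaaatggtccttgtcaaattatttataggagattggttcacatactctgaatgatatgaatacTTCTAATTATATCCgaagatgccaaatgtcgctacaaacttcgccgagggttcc

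The run of 20 bases, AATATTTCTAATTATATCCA, was present in the windows of Myh4, Myh1 and Myh2 and in no other of the 32851 promoter windows of the RefSeq table (250 bases before to 50 after each start site, both strands), or 0.00913% of them. It began 163 bases before the start site in Myh4, 165 bases before it in Myh1 and 130 bases before it in Myh2. Myh8 held 14 of these bases, TTCTAATTATATCC, beginning 54 bases before its start site, and only the windows of these 4 genes (0.0122%) held that shorter run. The run was found by comparing these promoters with one another, so its presence in them is a description and carries no test. The windows of Myh7 and Myh3 held neither run.

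Motifs known from muscle promoters were also looked for on both strands of the full windows. The E-box CANNTG, the letters that myogenic factors such as MyoD bind, was found in Myh4, Myh8, Myh7 and Myh3, and in 72.3% of all windows. The TATA box TATAAA was found in every gene of the 6 except Myh7, and in 13.6% of all windows. The MCAT motif CATTCC, bound by TEAD factors, was found in Myh4, Myh1 and Myh7, and in 14.7% of all windows. The CArG box was found in Myh4 alone among the 6 genes and in 1.63% of all windows. The MEF2 motif was looked for in a strict form only, which was found in no gene of the 6 and in 0.557% of all windows. A run outside that strict form, TTATTTATAG, stands in the sequences of Myh4, Myh1 and Myh8 printed above. Wider forms of the MEF2 motif were not counted, so no lack of MEF2 sites can be read from this search. These matches say only which letters the windows hold.

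The comparison asked whether these myosin genes differed between Grem1 cKO and control libraries. Transcripts of the 3 adult fast genes were abundant in each cKO library, while 3 of the 4 control libraries had no read of any of them. Of the 4 genes tested, Myh4, Myh2 and Myh1 were called as higher in cKO libraries and Myh8 was not called, and Myh7 and Myh3 were too rarely detected to be tested. Myh4, Myh2 and Myh1 reached the filter through the cKO libraries, so that passing it already required a difference, and their number is not read as support.

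Myh4, the gene of the 2B heavy chain, had 1482, 1318, 968, 2070.1 and 2054 normalized counts in cKO libraries 1 to 5, against 0, 1.38, 0 and 0 in control libraries 1 to 4. The single control read of Myh4 was in control 2, and the groups did not overlap. The mean was 1579 ± 479 (SD, n = 5) in cKO and 0.345 ± 0.69 (SD, n = 4) in control libraries. The log2 fold change was 10.26 with a standard error of 0.52 (limma, adjusted p = 3.45e-05). The ratio of the means, 4577, had a 95% counting interval of 822 to 180795, since the control side rests on 1 read. Without control 2 the ratio was at least 413, with each remaining control set to a floor of 3 reads.

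Myh2, the gene of the 2A heavy chain, had 3244, 1034, 2770.5, 3974 and 312 normalized counts in cKO libraries 1 to 5, against 0, 4.14, 0 and 0 in control libraries 1 to 4. Its lowest cKO library, cKO 5, lay far above the 3 reads of control 2. The means were 2267 ± 1538 (SD, n = 5) in cKO and 1.03 ± 2.07 (SD, n = 4) in control libraries. The log2 fold change was 10.08 with a standard error of 0.88 (limma, adjusted p = 0.000618), and the ratio of the means was 2191 with a 95% counting interval of 749.8 to 10625. Without control 2 the ratio was at least 593.

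Myh1, the gene of the 2X heavy chain, had 8483, 1386, 5333, 10693 and 1328 normalized counts in cKO libraries 1 to 5, against 0, 519, 0 and 0 in control libraries 1 to 4. It had the most reads of the 6 genes, 37252 over the cKO libraries, and its 376 control reads were all in control 2. The groups did not overlap, with control 2 at 519 and the lowest cKO library, cKO 5, at 1328. The means were 5444 ± 4189.7 (SD, n = 5) in cKO and 129.7 ± 259 (SD, n = 4) in control libraries, a ratio of 42. The log2 fold change was 9.67 with a standard error of 1.78 (limma, adjusted p = 0.0152). Without control 2 the ratio was at least 1423.

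Each of these 3 genes had a two-sided exact permutation p of 0.00794, the smallest that the 126 splits of 5 and 4 libraries allow. Among the genes tested, 6.82% likewise had every cKO library above every control library. The call for Myh1 was lost in count models of the recovered reads, with an adjusted p of 0.0999 by edgeR and 0.0873 by DESeq2, which called 4.96% and 16.5% of the genes they tested. The authors' deposited table gave it a log2 fold change of 5.39 with an adjusted p of 0.0868. With cKO 5 as the lone cKO library, that of like depth to the controls and assumed to vary as they do, Myh1 and Myh2 were not called (limma, adjusted p = 0.636 and 0.132). Myh4 then had an adjusted p of 0.0325, or 0.0944 with genes absent from these 5 libraries left out.

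**Figure D1:**
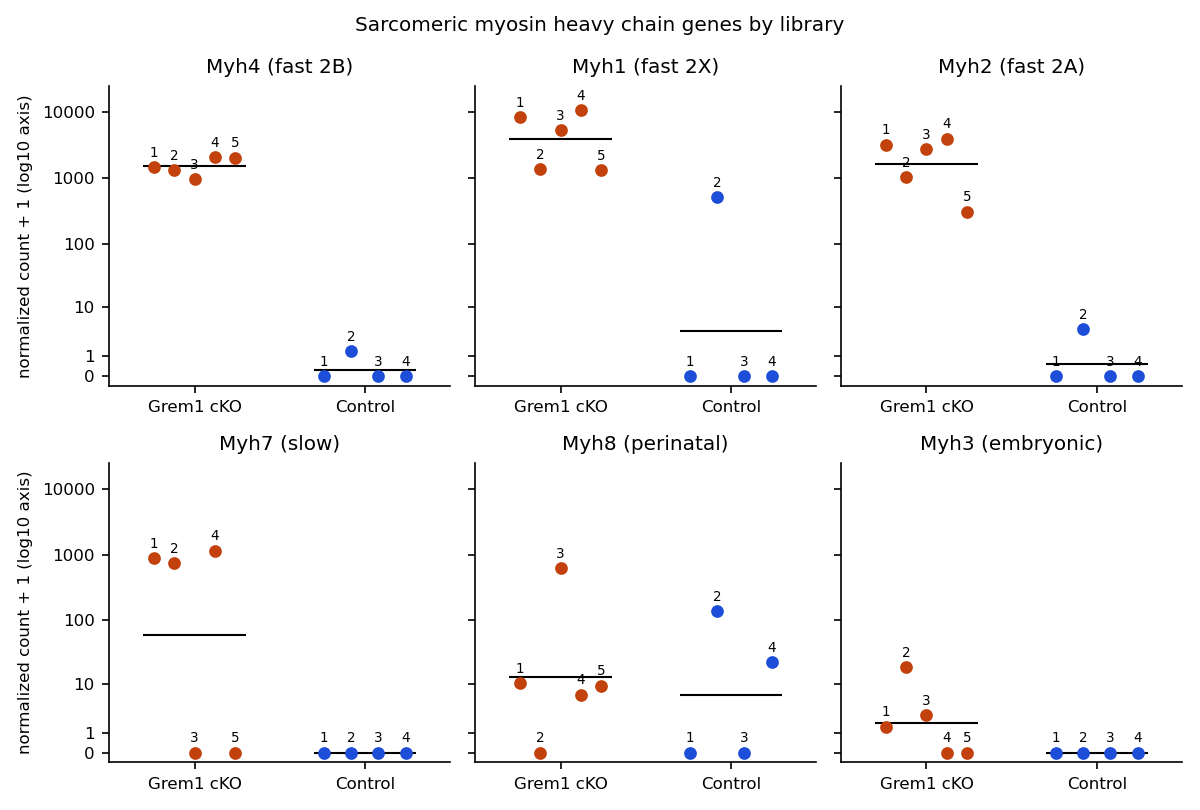
Normalized count plus 1 (log10 axis) of each of the 6 genes in every library, with Grem1 cKO libraries in orange on the left and control libraries in blue on the right of each panel. Numbers are replicate numbers and black lines are means of the log values. Myh4, Myh1 and Myh2 are high in the 5 cKO libraries, Myh7 in cKO 1, 2 and 4, and Myh8 is highest in cKO 3 and control 2.

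Myh7, the slow isoform, divided the cKO libraries. It had 893, 738, 0, 1147 and 0 normalized counts in cKO libraries 1 to 5, against 0 in each of the 4 control libraries. In reads these were 1213, 1096 and 1587 in cKO 1, 2 and 4, with no read at all in cKO 3 and cKO 5. The mean was 555 ± 528 (SD, n = 5) in cKO libraries, at least 142-fold above the floor of 3 reads per control library, and at least 104-fold with cKO 4 left out. With only 3 libraries at 10 or more, Myh7 failed the filter and had no limma test. The difference in mean log2(normalized count + 1) was 5.9, with a two-sided exact permutation p of 0.167, and limma with no filter gave an adjusted p of 0.17, in a fit that called 4.34% of its 20156 genes. The authors' deposited table gave Myh7 a log2 fold change of 11.19 with an adjusted p of 0.00651.

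Myh8, the perinatal isoform, had 10.3, 0, 624, 6.5 and 9.26 normalized counts in cKO libraries 1 to 5, against 0, 139, 0 and 22.4 in control libraries 1 to 4. It was the only gene of the 6 with reads in more than 1 control library, and the groups overlapped. A single library on each side held most of its reads, 921 of 951 in cKO 3 and 101 of 117 in control 2. The log2 fold change was 0.89 with a standard error of 2.05 (limma, adjusted p = 0.811). The ratio of the means was 3.22 with all libraries, 0.161 without cKO 3 and 17.5 without control 2, and the log2 fold change was -0.48 without cKO 3 and -0.08 without control 1 or without control 3. No direction can therefore be given for Myh8.

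Myh3, the embryonic isoform, was close to the limit of detection, with 1.47, 18.8, 2.71, 0 and 0 normalized counts in cKO libraries 1 to 5, against 0 in each control library. The 28 reads of cKO 2 were most of the 34 reads in all. The difference in mean log2(normalized count + 1) was 1.5 with a two-sided exact permutation p of 0.167, and Myh3 had no limma test.

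The plot of fold changes by setting shows how far these values moved with the processing. Thinning every library to the smallest read total left Myh4 at a log2 fold change of 10.22 (limma, adjusted p = 4.18e-05), and did not change the call of Myh1, Myh2 or Myh8.

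**Figure D2:**
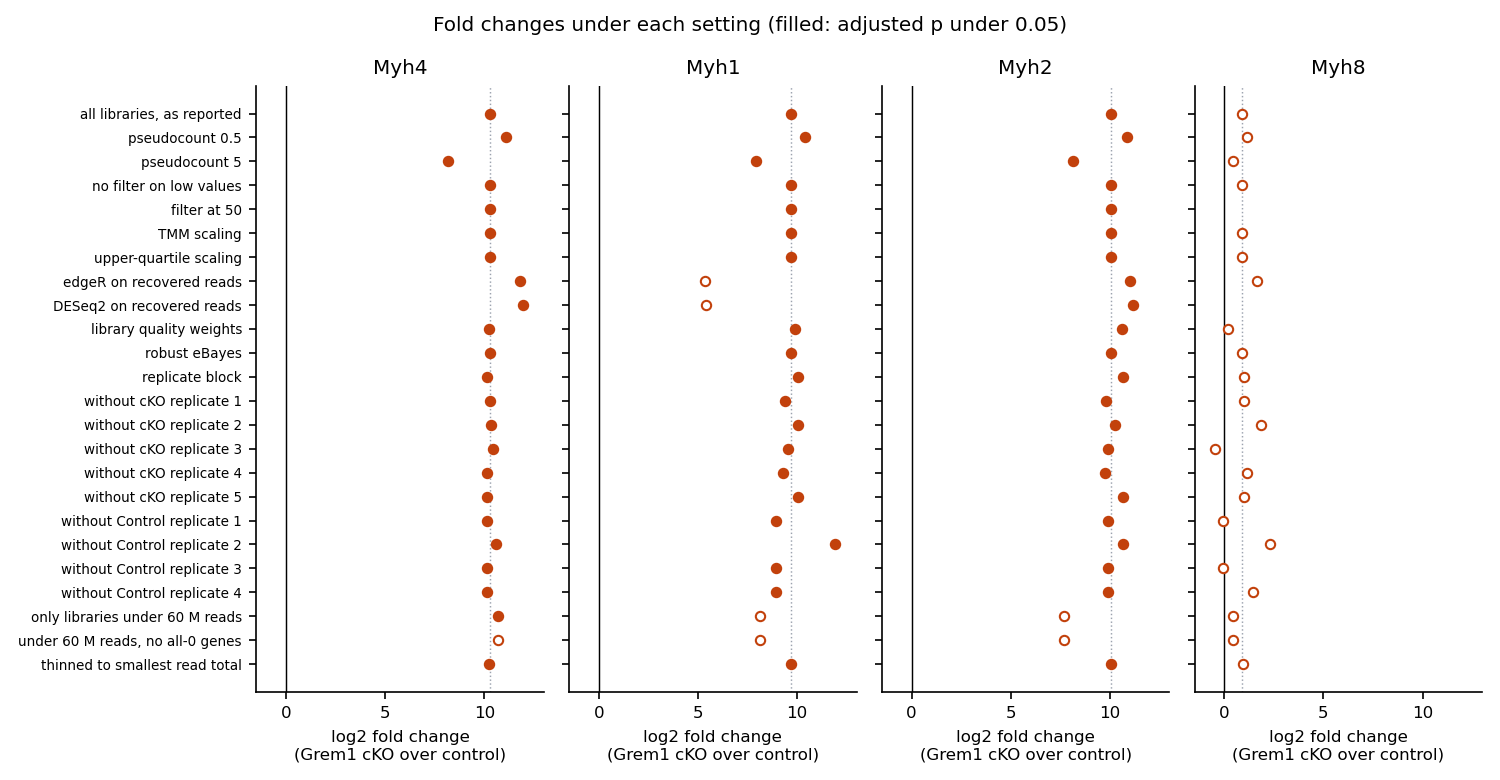
Log2 fold change of Grem1 cKO over control (horizontal axis) of Myh4, Myh1, Myh2 and Myh8 under each setting, with filled points at an adjusted p under 0.05 and a dotted line at the value with all libraries. Myh4 stays between 8.16 and 11.97, Myh1 lies at 5.37 and 5.39 in the count models, and Myh8 lies on both sides of 0.

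Per kilobase of coding sequence, the order of the mean levels in cKO libraries was Myh1, Myh2, Myh4, Myh7, Myh8 and Myh3. The mean levels per coding kilobase were 935 ± 719 normalized counts for Myh1, 389 ± 264 for Myh2 and 271 ± 82.3 for Myh4 (SD, n = 5). They were 95.7 ± 90.9 for Myh7, 22.4 ± 47.6 for Myh8 and 0.791 ± 1.38 for Myh3 (SD, n = 5). Myh1 was above Myh2 in 5 of 5 cKO libraries, and Myh4 was above Myh7 in 5 of 5. Neighbours further down or between them were less clearly ordered: Myh2 was above Myh4 in 3 of 5 cKO libraries, Myh7 above Myh8 in 3 of 5, and Myh8 above Myh3 in 4 of 5. The coding sequences differ little in length, 5805 to 5826 bases, so the order of the counts themselves was the same.

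The mixture of isoforms was next set out library by library, as each gene's share of the reads of the 6 genes (95% Clopper-Pearson intervals, counting error only). The adult fast genes together made up 93.6% (93.2% to 93.9%) of 19175 reads in cKO 1 and 83.2% (82.3% to 84.1%) of 6679 reads in cKO 2. Their share was 93.5% (93.1% to 93.9%) of 14304 reads in cKO 3 and 93.6% (93.2% to 93.9%) of 24760 reads in cKO 4. In cKO 5 it was 99.8% (99.5% to 99.9%) of 2800 reads. Adult fast transcripts were thus the large majority in each cKO library.

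The slow share, which is Myh7, was 6.33% (5.99% to 6.68%) in cKO 1, 16.4% (15.5% to 17.3%) in cKO 2 and 6.41% (6.11% to 6.72%) in cKO 4. It was 0 of 14304 reads in cKO 3, which allows up to 0.0258%, and 0 of 2800 reads in cKO 5, which allows up to 0.132%. Both limits lie below the counting intervals of cKO 1, cKO 2 and cKO 4. The developmental share, Myh3 and Myh8 together, was 6.47% (6.07% to 6.88%) in cKO 3, nearly all of it Myh8. It was 0.0834% in cKO 1, 0.419% in cKO 2, 0.0363% in cKO 4 and 0.25% in cKO 5. The library with the largest developmental share, cKO 3, thus had no slow read. cKO 5 also had no slow read, at a developmental share of 0.25%. Among cKO 1, 2 and 4, cKO 2 had the largest slow share and also the largest developmental share. Any contrast between slow and developmental isoforms therefore rests on cKO 3.

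Within the adult fast genes, Myh1 led in 4 cKO libraries and Myh4 in cKO 5. Myh1 made up 60.1%, 30.8%, 55%, 59.8% and 35.9% of the reads of the 6 genes in cKO libraries 1 to 5. Myh2 made up 23%, 23%, 28.6%, 22.2% and 8.43%, and Myh4 10.5%, 29.3%, 9.98%, 11.6% and 55.5%. The Myh4 share of cKO 5 (53.6% to 57.3%) and that of cKO 2 (28.2% to 30.4%) lay outside the counting intervals of the other cKO libraries, which ran from 9.5% to 12%. Among controls, control 2 had 481 reads of the 6 genes, of which 78.2% (74.2% to 81.8%) were Myh1 and 21% (17.4% to 24.9%) were Myh8. Control 4 had 16 reads, each of Myh8, and controls 1 and 3 had 0.

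**Figure D3:**
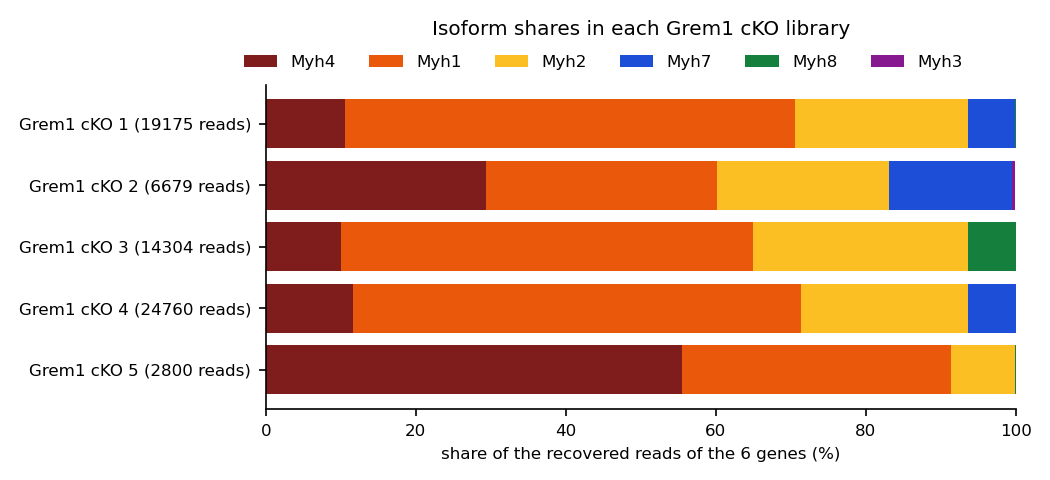
Share of each gene in the reads of the 6 genes (percent, horizontal axis) in each of the 5 Grem1 cKO libraries, with the number of reads beside each bar. Adult fast genes (dark red, orange and yellow) take 83.2% to 99.8% of each bar, slow Myh7 (blue) appears in cKO 1, 2 and 4, and perinatal Myh8 (green) is visible in cKO 3.

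Myh4 was the steadiest of the fast genes across cKO libraries. Its highest cKO library had 2.14 times the level of its lowest, against 8.05 times for Myh1 and 12.7 times for Myh2. The same ratio was 4.11 to 20.5 over 17 markers of skeletal muscle fibres, with a median of 10.1, and none of the 17 had a ratio as small as that of Myh4. This is a description of 5 libraries, with no test.

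The genes whose log2 values kept the most constant distance from each fast gene over the 5 cKO libraries were named from 14144 genes with a mean of at least 50. For Myh4 these were Impa2, Mospd3 and Noc4l, with a standard deviation of the log2 difference of 0.08 each. For Myh1 they were Sgip1 (0.21), Pdlim3 (0.23) and Tesc (0.32), and for Myh2 Zfp934 (0.17), Hand2 (0.2) and Gldn (0.22). None of these 9 genes was called between the genotypes. Each had reads in all 4 control libraries, except Hand2, which was at 0 in control 1. With 14144 genes compared over 5 libraries, close matches can arise without any link, so this is a description with no test.

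The myosin genes were read beside Acta1, the skeletal muscle actin and a partner of myosin in the sarcomere, which was picked for this after its values were seen. Acta1 had 219018, 139167, 32439, 351238 and 43525 normalized counts in cKO libraries 1 to 5, against 395, 337, 237 and 50.3 in control libraries 1 to 4. Per coding kilobase, the 6 myosin genes together came to 1.25%, 0.628%, 5.81%, 0.989% and 1.65% of Acta1 in cKO libraries 1 to 5. In control 2 they came to 38.3% of Acta1 and in control 4 to 8.65%. The myosin total of control 2 thus stood high beside its Acta1, which was no higher than in control 1.

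Other muscle genes were counted from lists written with earlier results of these data known, so their counts describe and do not support. For these and the cell type lists below, the shares over all genes tested were 4.61% called as higher and 2.87% as lower. Of 6 myosin light chain genes tested, 4 were called as higher in cKO libraries and 0 as lower, with a median log2 fold change of 6.67. Myl1 and Mylpf, the essential and regulatory light chains of fast fibres, had log2 fold changes of 7.44 and 5.9 (limma, adjusted p = 0.00189 each). Myl2 and Myl3, the light chains of slow fibres and of the heart ventricle, had log2 fold changes of 9.29 and 8.64 (adjusted p = 0.00681 and 0.00315). Light chains of both fibre classes were thus called, while Myh7, the slow heavy chain, was not tested.

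Of 10 other thick filament genes tested, 5 were called as higher and 0 as lower, with a median of 4.86. Mybpc2, the fast myosin-binding protein C, had no control read and 417 to 3988 normalized counts in cKO libraries, at least 465-fold above the floor (limma, adjusted p = 0.000146). Mybpc1, the slow form of that protein, rose by a log2 fold change of 9.41 (adjusted p = 0.00459). Mylk2, the kinase of the skeletal regulatory light chain, rose by 8.13 (adjusted p = 0.00367), and Myom2, an M-band protein, rose by 7.21 (adjusted p = 0.00788).

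Of 10 genes for folding and turnover of myosin, 3 were called as higher and 1 as lower, with a median log2 fold change of 1. Trim54 and Trim63, muscle ubiquitin ligases of the MuRF family, had log2 fold changes of 9.18 and 7.5 (limma, adjusted p = 0.00146 and 0.00401). Smyd1, a methyltransferase needed for thick filament assembly, had a log2 fold change of 6.89 (adjusted p = 0.0114). Cul3, the scaffold of a ubiquitin ligase found in most cells, fell by 1.29 on the log2 scale (adjusted p = 0.0109). Unc45b, the muscle chaperone of the myosin head and named after its values were seen, was not called, at a log2 fold change of 1.3 (adjusted p = 0.316).

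Fast fibre genes other than myosins were called as higher in 10 of 11 tested, with a median log2 fold change of 7.2. The leading ones were Tnnc2, the fast troponin C, at 9.31, and Atp2a1, the calcium pump of fast fibres, at 9.13 (limma, adjusted p = 0.00631 and 0.00237). Of 10 slow fibre genes tested, 6 were called as higher and 0 as lower, with a median of 5.33. Tnnc1, the slow and cardiac troponin C, had a log2 fold change of 9.9, and Myoz2, a Z-disc protein of slow fibres, one of 8.48 (adjusted p = 0.00308 and 0.00948).

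Several of the slow genes called were unevenly spread over the cKO libraries. Tnnc1 had 4299, 3893, 468, 6025 and 87.3 normalized counts in cKO libraries 1 to 5, against 0, 0, 0 and 2.79 in control libraries 1 to 4. Myl2 had 2197, 3031, 31.9, 3959 and 108 in the same cKO libraries, against 0 in each control library. Myoz2 had 4502, 2722, 592, 6424 and 92.6 in cKO, against 8.11, 0, 0 and 21 in control libraries. For each of these 3 genes the cKO libraries without a Myh7 read, cKO 3 and cKO 5, were the lowest of the 5 but not at 0. Slow genes that were not called, named after their values were seen, did not all share this order. Casq2, the calsequestrin of slow fibres and heart, was highest in cKO 3, with 1967, 1259.9, 2274, 2079 and 488 in cKO libraries 1 to 5, against 546 to 711 in control libraries. Atp2a2, a calcium pump that most cells make, was highest among cKO libraries in cKO 5 (22484), and Ldhb, a lactate dehydrogenase subunit, was higher in cKO 3 (1349) than in cKO 1 (1205). Fast Tnnc2 was lowest in cKO 3 and cKO 5, with 45575, 23839.9, 6066, 69014 and 6588 in cKO libraries 1 to 5, against 70.3, 182, 71.1 and 0 in control libraries.

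**Figure D4:**
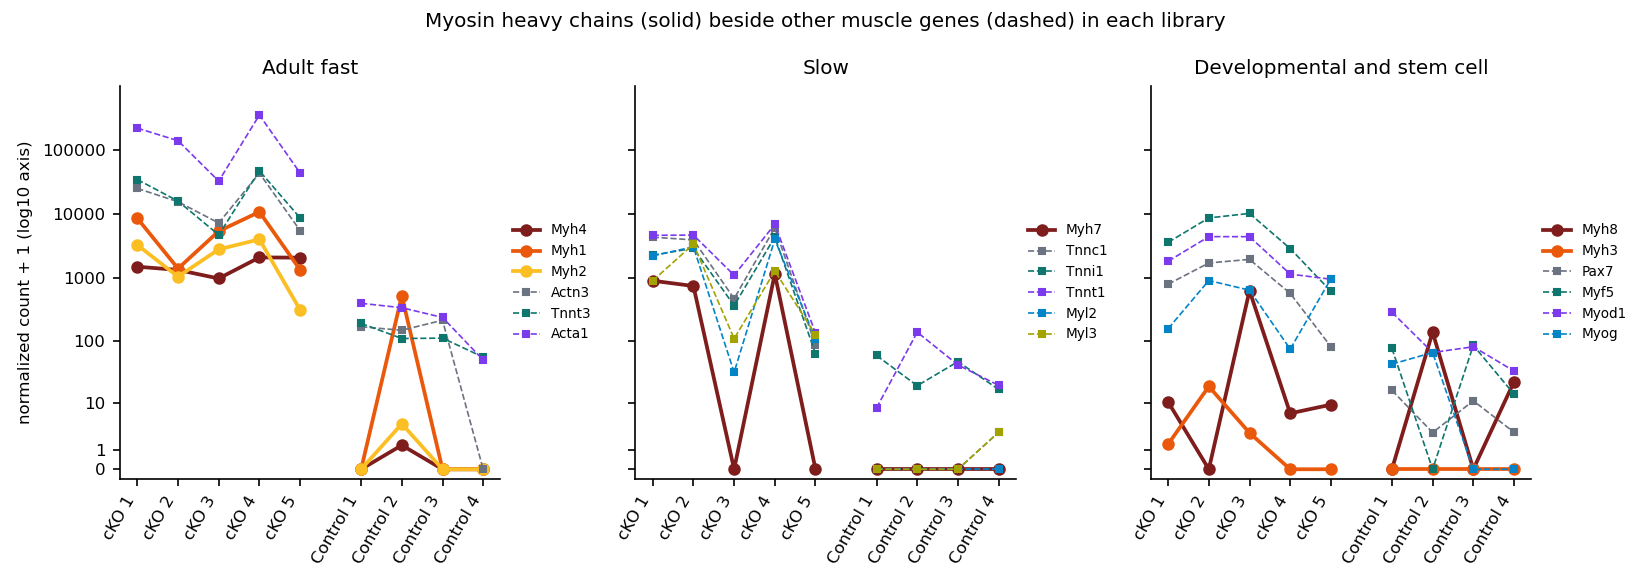
Normalized count plus 1 (log10 axis) of the myosin heavy chain genes (solid lines) and of other muscle genes (dashed lines) in each library, Grem1 cKO on the left and control on the right, with fast, slow, and developmental and stem cell genes in separate panels. Lines join libraries only to guide the eye. Myh7 drops to 0 in cKO 3 and cKO 5, where Tnnc1 stands at 468 and 87.3, while Myh4 stays within 968 to 2070.1.

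Genes of developing and regenerating muscle were set beside Myh8 and Myh3. Of 12 such genes tested, 6 were called as higher in cKO libraries and 0 as lower, with a median log2 fold change of 3.91. Myf6, Myf5 and Myog, muscle-determining transcription factors, had log2 fold changes of 8.29, 7.62 and 5.64 (limma, adjusted p = 0.00315, 0.0114 and 0.0471). Myf5, which marks muscle stem cells and myoblasts, had 3565, 8599.9, 10121, 2846 and 611 normalized counts in cKO libraries 1 to 5, against 77, 0, 86.1 and 14 in control libraries 1 to 4. Myog, switched on as myoblasts differentiate, had 158, 899.8, 635, 75.1 and 957 in cKO, against 43.2, 66.2, 0 and 0 in control libraries. Thus cKO 3, which had the most Myh8, also had the highest Myf5, but cKO 2, next in Myf5, had no read of Myh8. Chrng, the fetal subunit of the acetylcholine receptor and named after its values were seen, had 0 in each cKO library and 13.8 in control 2, the control library with the most Myh8.

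Among 17 regulators of fibre type, 3 were called as higher and 1 as lower, and the median log2 fold change was 0.13. Vgll2, a TEAD cofactor of skeletal muscle, had a log2 fold change of 6.07 (limma, adjusted p = 0.0133), and Ppargc1a, a coactivator of oxidative fibre genes, one of 5.94 (adjusted p = 0.021). Prox1, a homeobox factor of slow fibres that other cell types also make, had 1541, 2168, 3449.8, 739 and 201 normalized counts in cKO libraries 1 to 5, against 52.7, 55.2, 137 and 141 in control libraries (log2 fold change 3.67, adjusted p = 0.0223). Nfatc1, a calcium-dependent factor that acts in slow fibres and in many other cells, fell by 0.83 on the log2 scale (adjusted p = 0.0445). Prox1 was thus highest in cKO 3, where Myh7 had no read, and it ranked the cKO libraries in the same order as Myf5 did.

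Among the other conventional myosin heavy chain genes 1 was called as higher and 1 as lower. Of the 4 remaining sarcomeric genes none was tested: Myh6 (cardiac alpha), Myh7b and Myh13 had at most 60 reads in any library, and Myh15 had 0 in each. Myh7b had 2.94, 2.69, 0, 43.4 and 0 normalized counts in cKO libraries 1 to 5, against 0 in each control library, in the same 3 cKO libraries as Myh7. Myh9, the main non-muscle heavy chain, fell by 1.14 on the log2 scale, with 8873 ± 2910.2 normalized counts in cKO (SD, n = 5) and 18939 ± 2094 in control libraries (SD, n = 4; limma, adjusted p = 0.0142). Myh14, another non-muscle heavy chain, had 234 to 1499 in cKO and 2.15 to 200 in control libraries (log2 fold change 4.28, adjusted p = 0.0424). Myh10 (log2 fold change 0.12, adjusted p = 0.84) and the smooth muscle gene Myh11 (log2 fold change -1.4, adjusted p = 0.0677) were not called.

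A long noncoding RNA of the chromosome 11 cluster, 2310065F04Rik, was looked up after its values were seen. It had 176, 31, 19, 153 and 2.64 normalized counts in cKO libraries 1 to 5, against 0 in each control library, at least 19.6-fold above the floor (log2 fold change 5.18; limma, adjusted p = 0.0364). It was highest in cKO 1 and cKO 4, as were Myh1, Myh2 and Acta1. Unlike Myh1, it was lower in cKO 3 (19) than in cKO 2 (31).

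Summed markers of muscle fibres, muscle stem cells and Schwann cells were also higher in cKO libraries. From highest to lowest, the sum of the 6 myosin genes ranked the cKO libraries 4, 1, 3, 2, 5. The order was 4, 1, 2, 3, 5 for fibre markers, 3, 2, 1, 4, 5 for stem cell markers and 1, 4, 2, 3, 5 for Schwann cell markers. Of 17 skeletal muscle fibre markers tested, 16 were called as higher and 0 as lower, and their summed level was 112062 to 907004 normalized counts in cKO and 3677 to 6858 in control libraries. Of 8 muscle stem cell and myoblast markers tested, 7 were called as higher, with sums of 10439.8 to 84858 in cKO and 1006 to 3272 in control libraries. Of 7 Schwann cell markers, 6 were called as higher, with sums of 58347 to 135022 in cKO and 22768 to 30184 in control libraries. The part of these cell types in the myosin result was not tested. In bulk libraries more cells of a type and more RNA per cell cannot be told apart.

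Markers of other cell types had fewer calls. Over all genes tested, 4.61% were called as higher and 2.87% as lower, and these short lists were not tested against those shares. Of 9 markers of LEPR stromal cells, Pdgfra was called as higher, and their sums were 83376 to 184259.6 in cKO and 94907 to 353394 in control libraries. None of 6 macrophage and blood lineage markers was called (sums of 357 to 14502 in cKO and 4497 to 7852 in control libraries), nor any of 5 endothelial markers (1095 to 3232 in cKO and 3560.4 to 114919.9 in control libraries). Of 7 smooth muscle and pericyte markers, Mcam and Cspg4 were called as lower, and the median log2 fold change was -0.82. The sums of these 7 markers were 42493 to 93650.1 in cKO and 95905 to 132439 in control libraries. The 8 cardiomyocyte markers, listed because Myh7 is also a heart gene, summed to 218 to 518 in cKO and 199.8 to 314 in control libraries. Most of this was Myl4, the atrial and fetal light chain, with 299 ± 106 in cKO (SD, n = 5) and 175 ± 29.4 in control libraries (SD, n = 4), and neither Myl4 nor Tnnt2, the other one tested, was called (limma, adjusted p = 0.228 and 0.308). Nppb had 0 in every library, and Nppa and Myl7 averaged 5.64 and 2.71 in cKO libraries, with 0 in control libraries.

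Reads of these genes are alike in part. The share of 150-base stretches that the transcript has in common with another myosin heavy chain was 2.49% for Myh1, 2.06% for Myh2, 0.511% for Myh4, 1.6% for Myh8, 0.306% for Myh3 and 5.43% for Myh7, in GENCODE transcripts. Myh1 and Myh2 have a common run of 268 bases, and Myh7 shares most with Myh6. Annotated antisense transcripts overlap exons of Myh1 (Myhas, 515 bases) and Myh2 (9430073C21Rik, 237 bases). Exons of Myh7 are overlapped by Gm31251 (523 bases), Mhrt (484 bases) and Gm29015 (142 bases). Without the strand setting of the counting, reads of these transcripts and of the myosin genes cannot be told apart there.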

How the data were processed

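The expression values are normalized counts, deposited by the authors as a signal in which each library's gene counts are divided by its own size factor. STAR, featureCounts, DESeq2 and mm39 are named, without versions, per the submitters' processing notes; for the annotation and strand setting, the sources used here give nothing. A second deposited table holds the authors' own comparison, with the mean signal, log2 fold change, its standard error, a score (the test statistic) and p-values, per the file headers. Paired-end reads had 150 bases, per the labels.

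Dividing by the smallest value above 0 in each column recovered whole reads: at least 99.99% of values above 0 came out whole (tolerance 0.01), all but 3 values of 1 gene. Intervals, floors of 3 reads and count models used these reads, and cover counting error only. Symbols came from a table of GRCm38.p6, where 25275 IDs matched and 1904 did not. Coding lengths and overlaps came from GENCODE transcripts of GRCm38.

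limma 3.58.1 (R 4.3.3; moderated with a trend, two-sided, Benjamini-Hochberg over 15832 genes) was fitted to log2(normalized count + 1) with genotype alone. These fold changes can understate those of low genes and depend on the pseudocount where a group is near 0. They are differences of mean log values, so they can also exceed the ratio of the means. For Myh1 the fold was 815 by limma and the ratio of the means was 42. The script was tested on simulated data. Single genes also had an exact permutation test over 126 splits. The alternatives were other pseudocounts, filters and scalings, edgeR 4.0.16, DESeq2 1.42.0, library weights, robust eBayes, a replicate block, left-out libraries, libraries under 60 M reads, and thinning; the version of the fit under 60 M reads that leaves out absent genes was added after seeing the data. No 2 libraries of the same genotype agreed within sampling noise.

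The rule for named genes took the 6 genes, the other conventional myosin heavy chains, Grem1, Lepr, up to 4 called genes of largest change per list (the 2 of smallest p where none was called) and the 3 genes most like Myh4 and each other gene with at least 100 reads in every cKO library. Other genes are named where the text says so, or as markers. The genes and lists were chosen with earlier results of these data known.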

Additional observations from a re-analysis of the deposited data

Results flagged for a closer look

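Dixon's test for 1 library far from the rest of its group was run on 15 groups of values. It picked out 7. In groups of continuous, independent values chance gives about 1 flag in 20, a rate that does not hold here, since several groups are 0 in all libraries but 1 and some results rest on the same reads. In cKO libraries, cKO 3 stood apart for Myh8 (624 normalized counts) and for the developmental share (6.47%), which rest on the same reads. cKO 2 stood apart for Myh3 (18.8 normalized counts, from 28 reads).

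In control libraries, control 2 stood apart for Myh1 (519 normalized counts), Myh2 (4.14), Myh4 (1.38) and Myh8 (139). The first 3 of these genes had 0 in the other control libraries, so that any single read would have been picked out, as it was for Myh4. Without control 2 the ratio of the cKO mean to the control mean was at least 1423 for Myh1, against 42 with it, and 17.5 for Myh8, against 3.22 with it. The cause was not tested for any of these.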

How the results depend on the processing

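Myh4, Myh1 and Myh2 kept a positive log2 fold change under each of the 23 alternatives tried. Left-out libraries gave 10.14 to 10.57 for Myh4, 8.92 to 11.93 for Myh1 and 9.76 to 10.68 for Myh2, each still called. Myh1 lost its call with edgeR (5.37), DESeq2 (5.39) and libraries under 60 M reads (8.12, also 8.12 with absent genes left out). Myh2 lost it under 60 M reads (7.7 in both versions), and Myh4 there once absent genes were left out (10.69). That fit has 1 cKO library, so fewer samples are part of its construction. Myh8 ran from -0.48 to 2.3 with libraries left out, below 0 without cKO 3 (-0.48), control 1 (-0.08) or control 3 (-0.08), by limma and by permutation. Under 45 alternatives for the shares, the adult fast shares moved little, while the developmental share of cKO 4, from 9 reads, was 0.0599% after thinning, against 0.0363%. The number of genes called over the whole table, 1184, was far less stable: 786 with edgeR, 2546 with DESeq2, 4056 with library weights, 83 under 60 M reads (0 with absent genes left out) and 377 to 3562 with a library left out, the highest without cKO 5. The 0 calls came from limma; the causes were not tested.

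Equal replicate numbers did not pair the libraries (correlations of deviations 0.07, 0.017, -0.006 and -0.011). A replicate block gave 2715 calls, with Myh4 at 10.15, Myh1 at 10.06, Myh2 at 10.68 and Myh8 at 1, and changed no call among the 4. Replicate 5 exists in cKO alone, so the block takes cKO 5 out of the genotype estimate. These 4 fold changes were the same as those with cKO 5 left out. Depth limits Myh3, with 34 reads, and the control side of Myh4 and Myh2, with 1 and 3.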
